A study of Mus musculus with 7 samples.

Results

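Hippocampal nuclei that carried transcripts of *Slc17a6*, the gene for the vesicular glutamate transporter VGLUT2, are described here: 147 of 32312 nuclei (0.455%). A nucleus was taken as a member when its barcode held at least 2000 and fewer than 50000 transcripts, more than 400 genes, at least 3 transcripts (unique molecular identifiers) of *Slc17a6*, at most 1 of *Gad1* and *Gad2* together, at most 1 of *Prox1* and 0 of *Trp73*. These measured values chose the nuclei, so the levels of these genes are given as a description and carry no test. The gene lies on chromosome 7 of GRCm38 (chr7:51622006-51671119, plus strand, protein coding, ENSMUSG00000030500).

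The study barcoded single nuclei of 24 mice in a split-pool assay, the hippocampal nuclei of 1 mouse in each first-round well. Arctic48 mice (Arc), hemizygous for a human APP transgene with the Swedish, Indiana and Arctic mutations on C57BL6/J, were set against wild-type (WT) mice of the same cross that lack the transgene, and mice of both genotypes drank water (veh) or water with PMX205, an antagonist of the complement receptor C5aR1, at 20 µg/ml (PMX). By the labels treatment lasted 12 weeks and the mice were 10 months old at collection. A supplementary legend of the study instead speaks of 10 weeks of treatment. The 4 groups, written WT-veh and Arc-veh for water and WT-PMX and Arc-PMX for PMX205, had 6 wells each, female mice numbered from F1 and male mice from M1 with 3 of either sex, and all mice, controls included, were housed singly. The promoter of the transgene is not given in the sources used here. The study's reporting form says that 1 sample of the WT group was dropped because its gene expression showed it to be Arctic, without naming a well or saying whether it was a nuclear or a microglial sample. All 24 wells are kept here under their labels, so 1 of the wells labelled WT may hold an Arc mouse, which bears on each comparison of genotypes below. The 7 deposited sublibraries each mix all 24 wells, so the well is the replicate and counts of a well were summed over sublibraries.

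Glutamatergic neurons load glutamate into synaptic vesicles by 1 of the vesicular glutamate transporters. Most pyramidal and granule neurons of the adult hippocampus and neocortex use VGLUT1, encoded by *Slc17a7*. VGLUT2 is best known from thalamic, hypothalamic and brainstem neurons, and it also occurs in Cajal-Retzius cells and in parts of the subicular and retrosplenial cortex that border the hippocampus. The start regions of the transporter genes that separate the members from the comparison nuclei are shown first, as the 250 bases before the first RefSeq start on GRCm38.p6, plus strand, 5′ to 3′. Capitals mark the E-box letters CANNTG, which read the same on both strands.
Slc17a6 (chr7:51621580-51621829): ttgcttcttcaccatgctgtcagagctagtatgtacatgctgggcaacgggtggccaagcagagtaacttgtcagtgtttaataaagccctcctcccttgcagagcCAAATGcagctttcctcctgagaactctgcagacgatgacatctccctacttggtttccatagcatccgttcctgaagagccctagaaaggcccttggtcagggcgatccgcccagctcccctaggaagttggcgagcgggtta
Slc17a7 (chr7:45163671-45163920): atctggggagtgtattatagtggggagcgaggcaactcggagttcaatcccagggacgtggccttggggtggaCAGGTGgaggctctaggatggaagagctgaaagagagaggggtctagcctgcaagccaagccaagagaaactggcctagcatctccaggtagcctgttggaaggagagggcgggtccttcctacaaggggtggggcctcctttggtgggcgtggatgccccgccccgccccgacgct
Each window holds 1 E-box, a motif found in 66.2% of the 32851 promoters of this length. A second RefSeq start of *Slc17a6*, whose window (chr7:51624387-51624636) is not printed, has 2 E-boxes and a GC content of 41.2%. GC content is 53.2% for the printed window of *Slc17a6* and 61.2% for *Slc17a7*.

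Of the 32312 nuclei, 1225 (3.79%) had at least 1 transcript of *Slc17a6*, 233 had 2 and 171 had 3 or more. Of the 171, 10 exceeded the limit on *Gad1* and *Gad2*, 13 that on *Prox1* and 5 held *Trp73*, with overlaps between these. Among the 147 members, 85 had exactly 3 transcripts of *Slc17a6*, 35 had 4, 14 had 5 and 8 had 6, and the highest count was 9. A member held a median of 16726 transcripts (3952 to 48134) and 4145 genes. The deposited barcode names are not unique across sublibraries: 2099 names of these nuclei occurred in more than 1 sublibrary, among them the names of 26 members, and barcodes of different sublibraries were kept as different nuclei.

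Free RNA can add transcripts to any nucleus, so the same counts were taken in nuclei chosen by markers of other cell types. Of 1585 oligodendrocyte nuclei, chosen by myelin transcripts, 2.02% (95% exact binomial interval 1.38 to 2.84) had at least 1 transcript of *Slc17a6* and 0.315% (0.103 to 0.735) had 3 or more, at a median of 3532 transcripts. Of 2971 nuclei with *Gad1* or *Gad2*, the enzymes of GABA synthesis, 0.740% (0.465 to 1.12) had at least 1 and 0.269% (0.116 to 0.530) had 3 or more, at a median of 10568 transcripts. The intervals cover counting error only. The oligodendrocyte nuclei also held neuronal transcripts, with *Syt1* in 46.3% and *Meg3* in 63.5% of them. Neither set is known to lack the gene, and the part of free RNA in these shares was not tested. Nuclei just outside the limit, with exactly 2 transcripts and all other limits met, numbered 212, and 93.9% of them held *Tshz2*, against 95.3% of the 85 members with exactly 3. Among the 766 nuclei with a single transcript the share was 85.2%.

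The members carried neuronal transcripts, and *Slc17a7* was found in many of them. *Syt1*, the calcium sensor of transmitter release, and the neuronal long RNA *Meg3* were found in 147 of 147, and *Rbfox3* and *Snap25* in 99.3%. *Slc17a7* was at 0 in 77 members, at 1 or 2 transcripts in 54 and at 3 or more in 16. *Slc17a8*, the gene for VGLUT3, was found in 0 of 147 nuclei, which allows up to 2.04% of nuclei with a transcript of it and sets no limit on nuclei that express it below detection. *Slc32a1*, the GABA transporter of vesicles, was found in 1.

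*Tshz2*, a zinc finger transcription factor gene known from retrosplenial and subicular cortex, was present in 139 of 147 members (94.6%), compared with 15.4% of Slc17a7 nuclei, 22.3% of all nuclei and 63.0% of the 27 nuclei with at least 1 transcript of both *Trp73* and *Slc17a6* (median 3493 transcripts). The Slc17a7 nuclei, used for comparison throughout, were the 1921 nuclei with at least 3 transcripts of *Slc17a7*, 0 of *Slc17a6* and the same limits on the other genes, at a median of 21382 transcripts. Markers of the regions best known for VGLUT2 were divided. Of the 9 thalamic markers, *Rora* (98.0%) and *Ntng1* (67.3%) were common in the members and also in Slc17a7 nuclei (98.6% and 58.2%), while the other 7 were each found in at most 5.44% of members, among them *Tcf7l2* (3.40%) and *Lef1* (2.04%). Of the 8 habenular markers, *Nwd2* was found in 46.9% of members and 75.6% of Slc17a7 nuclei and *Lrrc55* in 8.84% of members. The other habenular genes *Tac2*, *Pou4f1*, *Gpr151*, *Chrna3*, *Chrnb3* and *Chrnb4*, the hypothalamic and midbrain genes *Foxa1*, *Otp* and *Barhl1*, and the layer 6b genes *Cplx3*, *Nxph4* and *Ccn2* were each found in 0 of 147. Of the pan-neuronal list, *Camk2a* was found in 85.0% of members and *Nrgn* in 47.6%, compared with 99.7% and 65.9% of Slc17a7 nuclei. Of the CA1 list, *Man1a* was found in 89.8% of members and *Mpped1* in 71.4%, compared with 77.8% and 54.5% of Slc17a7 nuclei.

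All 32312 nuclei were clustered without the genes of the rule and without *Slc17a7*, and the members fell into 11 of 41 clusters. The 5 clusters with at least 10 members each held 129 of them (87.8%) and are called here by their leading genes. They hold 3175 nuclei (9.83% of all), and most of those nuclei are not members. Clustering used all other genes of the same nuclei, so the differences between clusters are a description.

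The Fn1/Rxfp1 cluster held 37 members among 454 nuclei. All 37 carried *Fn1*, the fibronectin gene and 1 of 6 subicular markers listed, as well as *Etv1*, *Bcl11b* and *Ntng1*, and 33 carried *Nr4a2*. Of the other 5 *Nts* and *Gpr101* were found in 8 each, *Teddm3* in 2 and *Ly6g6e* and *Dlk1* in 0. *Bcl11b*, *Etv1* and *Fezf2* (24 of 37) encode transcription factors of deep cortical layers. *Bcl11b* and *Etv1* were also found in 71.8% and 57.3% of Slc17a7 nuclei, and of the other deep-layer markers *Tle4* was found in 22 of the 37, *Hs3st4* in 3, *Foxp2* and *Deptor* in 2 each and *Syt6* in 0. *Cux2* was found in 1 of these members. *Slc17a7* accompanied *Slc17a6* in 62.2%, at a median depth of 21019 transcripts. Its members came from 14 wells.

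The Npsr1/Pdzrn3 cluster held 33 members among 917 nuclei and carried the upper-layer factor *Cux2* in 33 of 33 at 571 CPM (transcripts of the gene per 1000000 transcripts). Of the other upper-layer markers *Rasgrf2* was present in 27, *Otof* in 2 and *Rorb* and *Lamp5* in 0, and the kainate receptor gene *Grik4* was present in 33. *Slc4a4*, a bicarbonate cotransporter gene better known from astrocytes, was found in 33 of 33 at 763 CPM, while of the other astrocyte markers *Aqp4*, *Gja1* and *Gfap* were each found in 1, *Slc1a3* in 3 and the glutamate transporter gene *Slc1a2* in 27 at 242 CPM. *Slc1a2* was found in 78.2% of Slc17a7 nuclei. *Bcl11b* and *Fezf2* were found in 0. The glycan gene *Gpc6* and the sarcoglycan gene *Sgcz* were leading genes of the cluster, at 3156 and 8513 CPM over all its nuclei.

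The Ebf2/Ebf3 cluster held 27 members among 175 nuclei and had the highest *Slc17a6* of the 5 over all its nuclei, at 177 CPM. The level in the members alone depends on their depth through the rule and is not compared. *Slc17a7* was found in 11.1% of its members and *Camk2a*, the kinase of cortical excitatory neurons, in 5 of 27. *Pcp4* was present in 25, *Cacng5* in 22, *Cux2* in 23, *Plch1* in 21 and the calretinin gene *Calb2* in 19, while *Ntng1* and *Tshz2* were present in 27 of 27. *Ebf2* was found in 27 and *Ebf3* in 26, genes of the early B-cell factor family that Cajal-Retzius cells also express. Of the other genes on the Cajal-Retzius list, *Cacna2d2* was found in 19 at 142 CPM, *Lhx1* and *Ndnf* in 3 each, *Lhx5* in 2 and *Nhlh2* in 0. *Reln*, the secreted protein that defines Cajal-Retzius cells, was found in 0 of its members, and *Trp73* is at 0 in members by the rule and in 0 of the cluster's 175 nuclei. *Reln* was found in 1.71% of the 175 nuclei. With *Trp73* at 0 and *Reln* rare, the cluster is left without a cell type name. Its members were the shallowest of the 5 clusters, with a median of 6545 transcripts, and they came from 10 wells. A separate cluster of 25 nuclei led by *Reln* and *Ndnf*, in which 23 nuclei held *Trp73*, had *Slc17a6* at 373 CPM, and it holds 0 members under the limit on *Trp73*.

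The Tshz2/Unc13c cluster held 17 members among 970 nuclei. *Unc13c*, a vesicle priming gene, was found in 17 of 17, *Cux2* and *Rasgrf2* in 13 each, and *Wfs1*, a marker of CA1 and of retrohippocampal neurons, in 7. The Gm6260/Fras1 cluster held 15 members among 659 nuclei, with *Bcl11b* in 15, *Etv1* in 14, *Fezf2* and *Nr4a2* in 12 each, and *Reln* in 7. Its members were the deepest, with a median of 36419 transcripts. The remaining 18 members lay in 6 further clusters, with at most 5 in any of them.

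**Figure D1:**
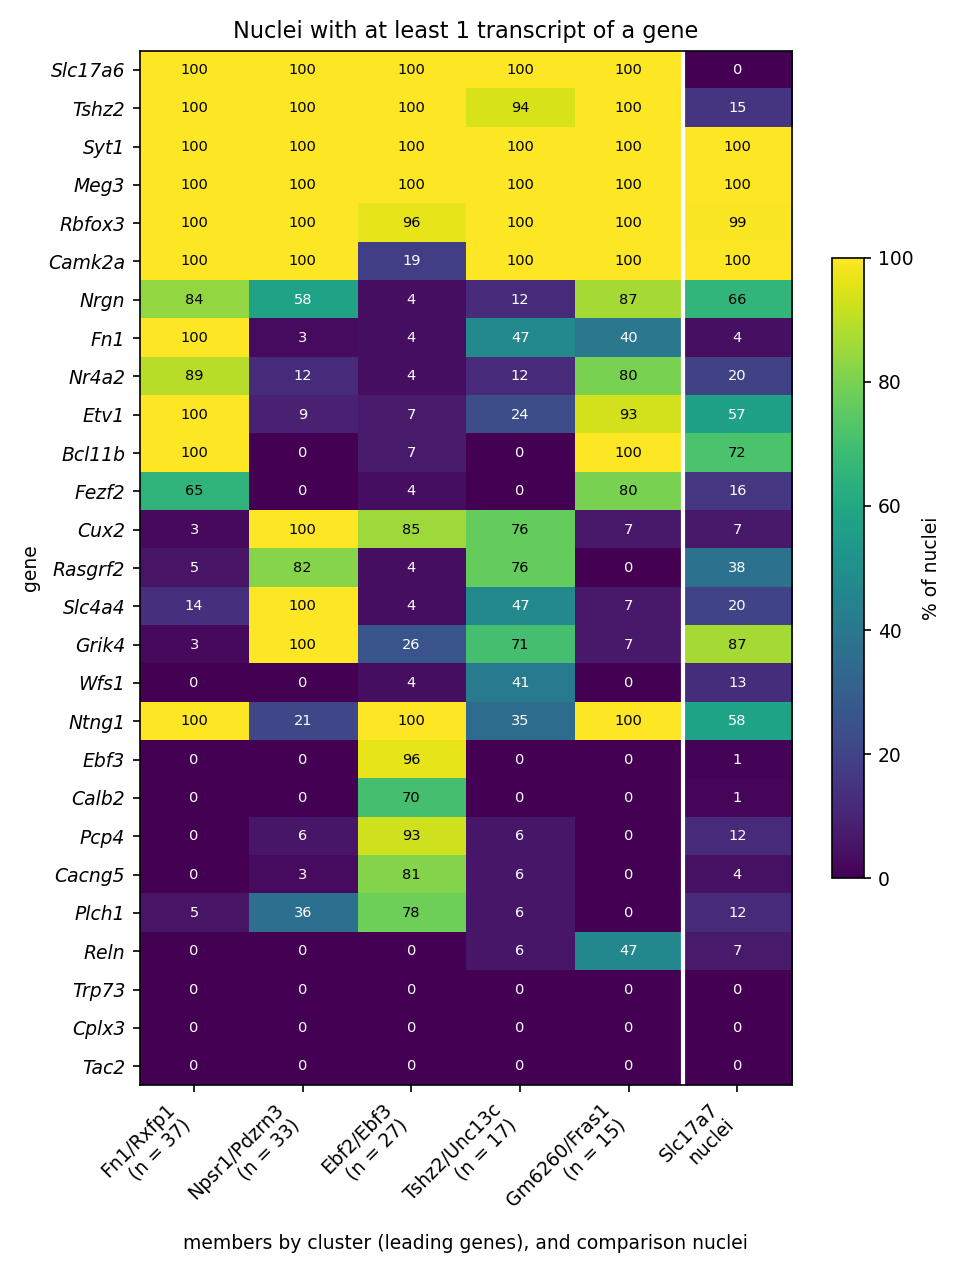
Percent of nuclei with at least 1 transcript of each gene, for the members of the 5 clusters named by leading genes (n = 37, 33, 27, 17 and 15) and for the 1921 Slc17a7 nuclei at the right; color and printed number give the percent. *Tshz2* is in nearly all members of each cluster, *Bcl11b* and *Etv1* mark the Fn1/Rxfp1 and Gm6260/Fras1 clusters, *Rasgrf2* the Npsr1/Pdzrn3 and Tshz2/Unc13c clusters, and *Ebf3*, *Calb2* and *Pcp4* the Ebf2/Ebf3 cluster.

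Since *Slc17a6* had no part in the clustering, its level was taken over all nuclei of a cluster in each well with at least 100000 transcripts of that cluster. In the Ebf2/Ebf3 cluster it lay between 168 and 285 CPM in 4 of the 18 wells that hold the cluster, with no Arc-veh well among them. In its wells below the limit it ranged from 0 CPM (WT-PMX F1) to 368 CPM (WT-PMX M3). In the Npsr1/Pdzrn3 cluster it lay between 24.4 and 90.3 CPM (median 46.8, 20 wells) and in the Fn1/Rxfp1 cluster between 14.4 and 101 CPM (median 46.8, 23 wells). These ranges overlap each other and do not reach that of the 4 wells of the Ebf2/Ebf3 cluster, but its shallower wells overlap them. The Tshz2/Unc13c cluster ranged from 6.67 to 61.1 CPM (median 21.4, 18 wells) and the Gm6260/Fras1 cluster from 5.09 to 27.7 CPM (median 14.1, 24 wells). Both ranges overlap those of the Npsr1/Pdzrn3 and Fn1/Rxfp1 clusters and lie below that of the 4 wells of the Ebf2/Ebf3 cluster.

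Members were found in 21 of 24 wells, with at least 10 in 5 of them. These were WT-veh F2 with 17, WT-PMX M1 with 14, WT-PMX M2 with 25, Arc-veh M2 with 13 and Arc-PMX F1 with 18. The wells WT-veh M3, WT-PMX F3 and Arc-PMX F3 held 0 members, which allows shares of up to 0.302%, 0.25% and 0.340%. In WT-veh wells the share of members ranged from 0 to 0.853% (median 0.280), in WT-PMX from 0 to 1.17% (median 0.324), in Arc-veh from 0.0686 to 0.905% (median 0.355), and in Arc-PMX from 0 to 1.24% (median 0.258). The 4 groups overlapped over most of their range.

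The share was 0.307% ± 0.30 in WT-veh, 0.522% ± 0.473 in WT-PMX, 0.398% ± 0.286 in Arc-veh and 0.420% ± 0.435 in Arc-PMX (SD, n = 6 wells each). Arc-veh was 0.0911 percentage points above WT-veh (two-sided exact permutation test over wells, p = 0.574, adjusted p = 0.860). Arc-PMX was 0.0224 points above Arc-veh (exact p = 0.924, adjusted p = 0.924) and WT-PMX 0.215 points above WT-veh (exact p = 0.331, adjusted p = 0.860). A group difference in this share was thus smaller than the spread between wells. The smallest p that 6 wells against 6 allow is 0.00216. Fewer nuclei of this kind and fewer *Slc17a6* transcripts per nucleus cannot be told apart in this share.

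Deeper nuclei reach a fixed limit of 3 transcripts more often, so the share depends on depth by the rule itself and its relation to depth is given as a description. Over the 24 wells Pearson r with the median transcripts per nucleus was 0.73 and Spearman rho 0.60, and r was 0.64 without the 2 wells farthest from the median depth. When each nucleus was thinned to 2000 transcripts and counted with at least 1 *Slc17a6* left, r was -0.18 and rho -0.15. The thinned shares were 1.09% in WT-veh, 1.07% in WT-PMX, 1.09% in Arc-veh and 0.815% in Arc-PMX. Among sublibraries the share of members ranged from 0.203% to 0.854%, with median depths between 7089.5 and 7975.0 transcripts, and each sublibrary holds wells of all groups.

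**Figure D2:**
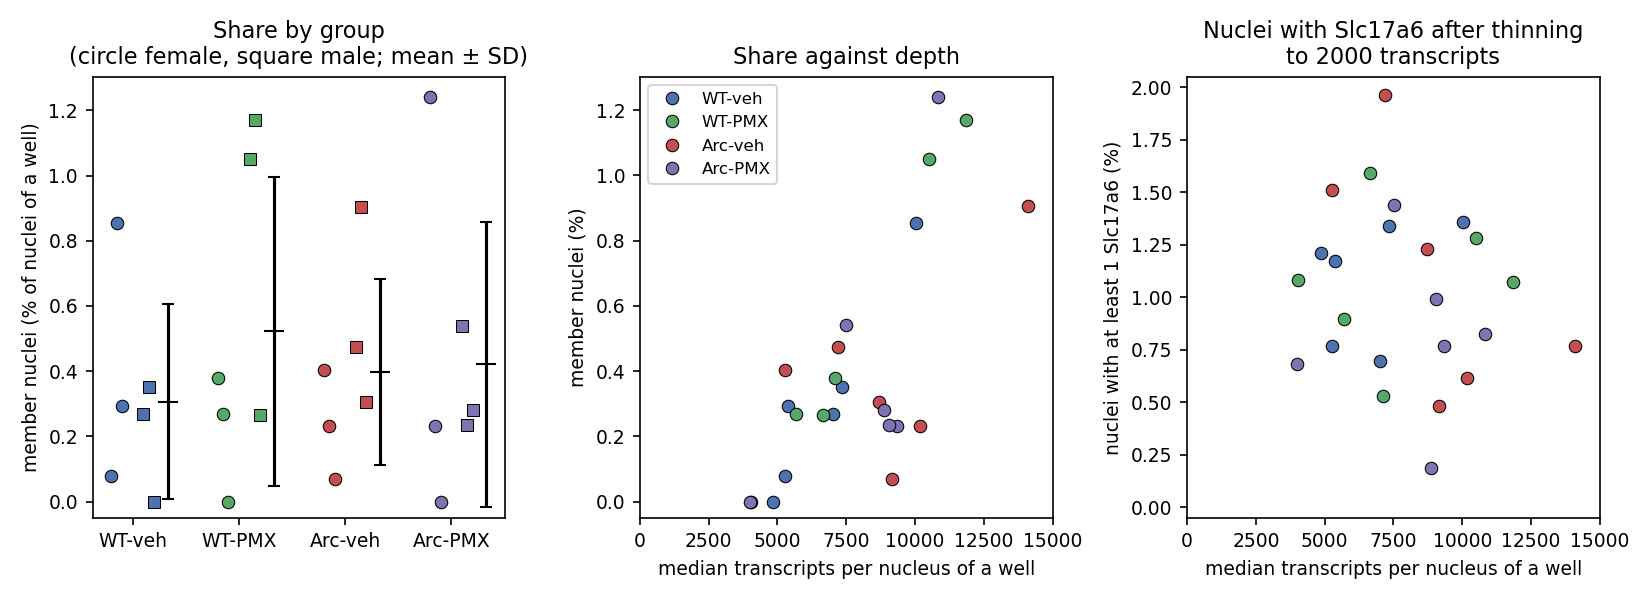
Left, share of members among the nuclei of each well by group, with the mean and SD of the 6 wells beside the points; middle, the same share against the median transcripts per nucleus of the well; right, percent of nuclei with *Slc17a6* after thinning each nucleus to 2000 transcripts. The groups overlap, the 5 wells with the highest shares (0.853% to 1.24%) have medians of 10042 to 14109 transcripts, and after thinning the slope with depth is no longer seen.

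Members and Slc17a7 nuclei of the same mice were then set against each other. Each population was summed in the 5 wells with at least 10 of both. There, 87 members (1943654 transcripts) stood against 792 Slc17a7 nuclei (22166765 transcripts), and edgeR's quasi-likelihood test was run with the well as a block. Of 9682 genes tested, 903 differed (9.33%) at an adjusted p under 0.05 and a fold of at least 2, with 477 higher (4.93%) and 426 lower (4.40%) in the members. For 813 of the 903 the sign was the same in each of the 5 wells. The median log2 fold change of all genes was 0.0011. Members were not tested against the other nuclei of their own clusters, so the differences are not shown to be particular to members. Over all 917 nuclei of the Npsr1/Pdzrn3 cluster, 33 of them members, *Tshz2* was at 3725 CPM, *Sgcz* at 8513 and *Pdzrn3* at 999. In the members of that cluster these genes were at 3233, 9637 and 1090 CPM. CPM below are means over these 5 wells with their SD (n = 5) and are scaled to all transcripts, while log2 fold changes and their standard errors come from edgeR.

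*Tshz2* (chr2:169633013-170071816) had 1374 CPM in the members of WT-veh F2, 2493 in WT-PMX M1, 2437 in WT-PMX M2, 1842 in Arc-veh M2 and 2080 in Arc-PMX F1. In Slc17a7 nuclei of the same wells it had 90.3, 162, 170, 58.5 and 232 CPM, so that the populations did not overlap. The log2 fold change was 3.92 ± 0.21 (SE, adjusted p = 1.9e-08, edgeR). Its relative *Tshz3* followed, at 222 ± 66.5 against 25.3 ± 4.27 CPM (log2 fold change 3.06 ± 0.16).

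The highest fold changes among genes with at least 100 CPM and one sign in all wells belonged to *Pdzrn3*, a ubiquitin ligase gene, *Cux2*, the upper-layer factor, and *Coro6*, an actin-binding coronin. *Pdzrn3* had 55.5 CPM in the members of WT-veh F2 and 309 to 453 CPM in the other 4 wells, compared with 2.44 to 21.3 CPM in Slc17a7 nuclei (log2 fold change 4.40 ± 0.33, adjusted p = 4.1e-07, edgeR). *Cux2* had 52.7 CPM in WT-veh F2 and 155 to 281 CPM in the others, against 2.44 to 18.8 CPM (4.21 ± 0.35). In both genes the well WT-veh F2 was lowest, and 1 of its 17 members lay in the Npsr1/Pdzrn3 cluster, compared with 4 to 7 members in each of the other 4 wells. *Coro6*, found in 111 of 147 members over all clusters, ranged from 129 to 385 CPM against 4.26 to 20.2 CPM (4.05 ± 0.17).

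*Sgcz* reached 3683 ± 1289 CPM against 281 ± 39.0 (log2 fold change 3.63 ± 0.14), and the receptor phosphatase gene *Ptprt* 2014 ± 378 against 210 ± 26.4 (3.22 ± 0.16). *Chrm2*, the M2 muscarinic acetylcholine receptor, had 126 ± 83.8 against 8.66 ± 3.06 CPM (3.74 ± 0.29), *Rxfp1*, the relaxin receptor, 174 ± 52.9 against 16.7 ± 5.27 (3.34 ± 0.26), and *Plcb4*, a phospholipase C coupled to such receptors, 148 ± 64.7 against 13.3 ± 5.07 (3.45 ± 0.16). None of these overlapped between the populations. *Vwc2l*, *Rmst*, *Gm26883*, *Epb41*, *Eps8* and *Gpc6* completed the 15 highest, with log2 fold changes between 3.30 and 3.51, and of these *Vwc2l* overlapped (72.2 to 622 against 11.9 to 76.4 CPM). Without the Ebf2/Ebf3 cluster *Eps8* fell to 0.83 on the log2 scale and was no longer called.

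Among the genes lower in the members, *Zbtb20* (chr16:42875881-43642602), the transcription factor that specifies hippocampal pyramidal and granule neurons, had 111, 68.3, 88.0, 107 and 169 CPM in the order of wells above, against 3147, 2446, 2204, 2268 and 2150 CPM in Slc17a7 nuclei. Each member value was far below each Slc17a7 value (log2 fold change -4.52 ± 0.19, adjusted p = 2.1e-09, edgeR). *Ccbe1* had 11.8 ± 10.8 against 386 ± 135 CPM (-4.77 ± 0.36) and the cadherin gene *Cdh9* 9.30 ± 3.18 against 213 ± 44.9 CPM (-4.60 ± 0.21). *Fam19a1*, a secreted neurokine gene, had 374 ± 139 against 3060 ± 179 CPM (-3.12 ± 0.18). The other genes of the 15 lowest were *Gm32647*, *Trps1*, *Rerg*, *Nectin3*, *4921539H07Rik*, *Gm49678*, *Kcnc2*, *Cntnap5c*, *6530403H02Rik*, *9530026P05Rik* and *Pkp2*, with log2 fold changes between -4.76 and -2.82. With dentate granule nuclei in place of Slc17a7 nuclei, *Gm49678* and *Kcnc2* changed sign, and *Gm32647* (-0.46) and *Cntnap5c* (-0.02) were no longer called.

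**Figure D3:**
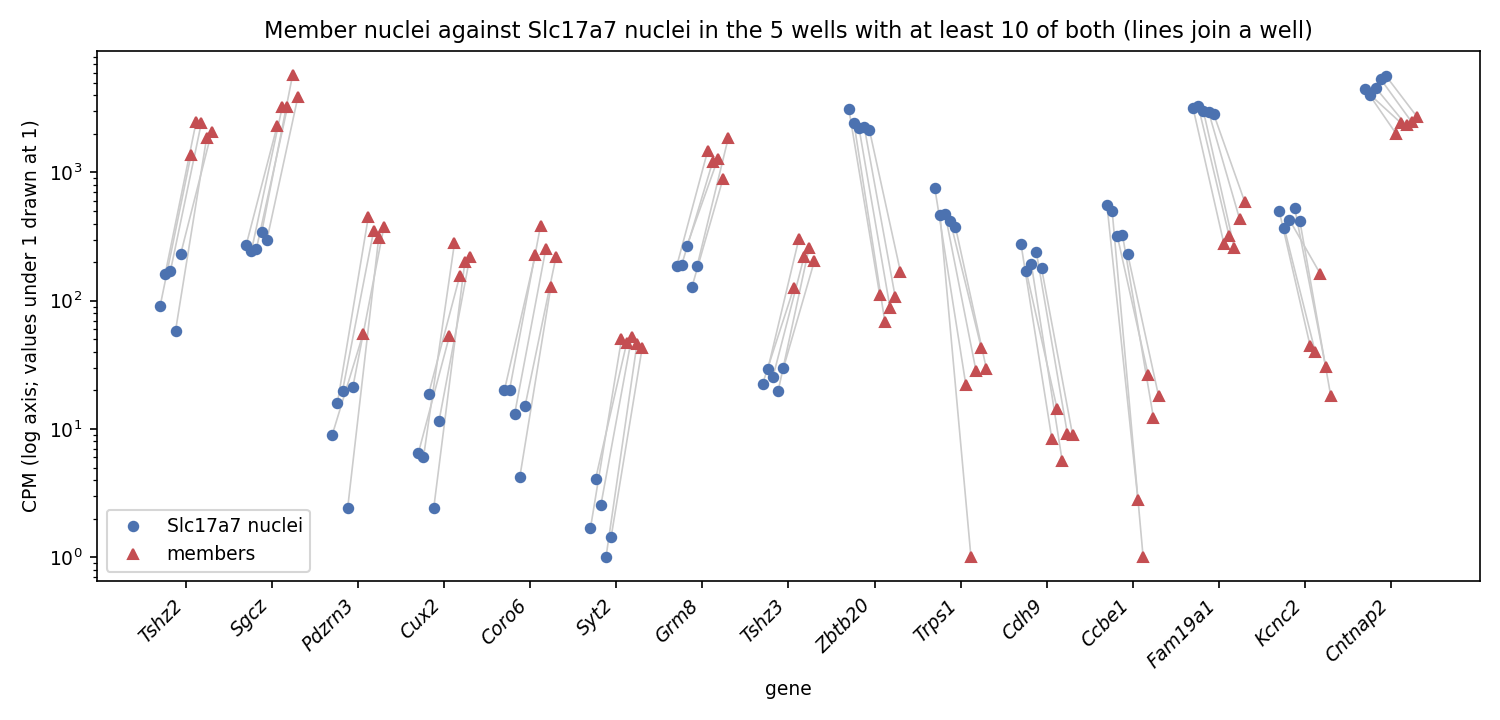
CPM (log axis, values under 1 drawn at 1) of 15 genes in the Slc17a7 nuclei (blue circles) and the members (red triangles) of the same 5 wells, each well joined by a line. *Tshz2* to *Tshz3* are higher in the members of every well and *Zbtb20* to *Cntnap2* lower.

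Region marker lists share some of their genes with those just named, so their counts are no separate evidence. Of 5 tested CA3 markers, 4 were lower and 0 higher (80.0%, beside 9.33% of all genes), with *Trps1* at 24.5 ± 15.6 against 498 ± 150 CPM (-4.29 ± 0.29) and *Nectin3*, an adhesion gene of CA3 neurons, at 9.57 ± 6.86 against 152 ± 30.3 (-4.11 ± 0.26). Of 6 tested CA1 markers 1 was lower, *Fibcd1* (-3.31 ± 0.44), and 5 did not pass. All 4 tested retrosplenial and presubicular markers were higher, among them *Tshz2*, *Pamr1* (2.01 ± 0.48) and *Plch1* (1.32 ± 0.30, but 0.11 and not called without the Ebf2/Ebf3 cluster), as was *Fn1*, the 1 subicular marker tested (186 ± 90.7 against 22.7 ± 15.7 CPM, 3.09 ± 0.34). Of 7 tested deep-layer markers, *Etv1* and *Fezf2* were higher and *Hs3st4* lower, and of 6 pan-neuronal markers 0 differed. Of 4 upper-layer markers 1 was higher, *Cux2*, and of 3 thalamic markers 1, *Ntng1*. The 3 CA2 markers gave 2 higher, *Cacng5* and *Pcp4*, and 1 lower, and the 3 mossy cell markers 1 higher, *Calb2*, and 1 lower. Without the Ebf2/Ebf3 cluster *Pcp4* was at -1.71. That cluster held 22 of the 28 members with *Cacng5* and 19 of the 21 with *Calb2*. The median log2 fold change was -2.11 for the CA3 list and 1.66 for the retrosplenial and presubicular list.

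Markers of other cell types were measured in the same sums. The 6 astrocyte markers summed to 77.7 to 609 CPM in members and 270 to 371 CPM in Slc17a7 nuclei, with *Slc4a4* higher (2.23 ± 0.43, but lower against granule nuclei). The 6 oligodendrocyte markers summed to 94.5 to 360 against 158 to 200 CPM, with *St18* lower. The 7 microglial markers summed to 11.1 to 148 against 23.5 to 34 CPM, with 0 of 1 tested called. The 9 inhibitory markers summed to 7.19 to 52.4 against 35.3 to 91.4 CPM, with *Lhx6* and *Sst* at 0 in the members. The part of other cell types in the differences above was not tested.

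The gene lists below were chosen with earlier results of these data known, and some lists share genes. Their shares beside that of all genes are a description and no test of a list. Of 22 tested genes of glutamate release, 4 were higher and 0 lower (18.2%, beside 9.33% of all genes). *Syt2*, the fast synaptotagmin, had 50.0, 46.8, 52.4, 45.9 and 42.8 CPM in the members and 1.69, 4.10, 2.54, 0.609 and 1.44 CPM in Slc17a7 nuclei, with no overlap (log2 fold change 4.49 ± 0.34, adjusted p = 4.4e-07, edgeR). *Vamp1*, a vesicle SNARE often found with *Syt2*, was higher by 1.25 ± 0.29. *Unc13c* was higher by 2.25 ± 0.38 with overlapping wells and was not called by DESeq2, at 0 CPM in WT-veh F2 and 223 in WT-PMX M2, and 17 of the 30 members with it lay in the Tshz2/Unc13c cluster. *Sv2c* was higher than in Slc17a7 nuclei (3.18 ± 0.33) and lower than in granule nuclei. Of the transporters themselves, which chose the populations, *Slc17a6* had 173 ± 15 CPM in members, and *Slc17a7* had 56.0 ± 4.32 CPM against 156 ± 20.2.

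Glutamate receptor genes differed in both directions. Of 22 tested, 7 were higher and 3 lower (45.5%, beside 9.33% of all genes), with a median log2 fold change of 0.04. *Grm8*, a presynaptic metabotropic receptor, had 1463, 1216, 1279, 897 and 1850 CPM in the members and 129 to 268 CPM in Slc17a7 nuclei (2.77 ± 0.15, adjusted p = 2.4e-08, edgeR). *Grm4*, of the same group of receptors, was higher by 2.68 ± 0.22. *Grik1*, a kainate receptor subunit, was higher by 2.85 ± 0.39, but with values from 9.18 to 630 CPM in the members that overlapped the other population. *Grin2a*, an NMDA receptor subunit, was lower in every well, at 1767 to 3655 against 4126 to 4541 CPM (-1.07 ± 0.15), as was *Grik4*, at 111 to 482 against 672 to 1387 CPM (-1.53 ± 0.29). In *Grm8*, the Ebf2/Ebf3 members stood highest, at 4320 CPM against 561 to 1415 CPM in the other 4 clusters. *Grik4* was not low in all members. It was at 1246 CPM in the Npsr1/Pdzrn3 members and at 1.15 to 393 CPM in those of the other 4 clusters. Over all Slc17a7 nuclei *Grik4* was at 1132 CPM.

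Of 13 GABA receptor genes tested, 3 were higher and 1 lower (30.8%). The share of all genes to set beside this list and those that follow is 9.33%. *Gabra5*, the subunit of extrasynaptic hippocampal receptors, had 109 ± 31.7 against 245 ± 23.8 (-1.21 ± 0.15). Among 17 calcium, sodium and pacemaker channel genes, *Cacna2d2* was higher (2.48 ± 0.27) and *Cacna1c* and *Cacna1d*, the L-type channels, were lower, with *Cacna1c* at 514 ± 127 against 1573 ± 344 CPM (-1.64 ± 0.17). Among 21 potassium channel genes, 4 were higher and 3 lower (33.3%), with *Kcnip1* at 131 ± 65.9 against 23.7 ± 15.3 CPM (2.51 ± 0.21) and *Kcnt2* at 90.8 ± 40.3 against 421 ± 62.6 (-2.28 ± 0.21). Against granule nuclei *Kcnc2* (0.57) and *Kcnc4* (-0.67) changed direction. Of 9 calcium-binding protein genes, *Rcan2* (2.25 ± 0.17) and *Calb2* (2.92 ± 0.76, not called by DESeq2) were higher and *Hpca* (-1.83 ± 0.19) and *Calb1* (-1.48 ± 0.44) lower. *Calb2* was at 0 in the members of Arc-veh M2, a well without members of the Ebf2/Ebf3 cluster, and at 13.1 to 20.3 CPM in the other 4.

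Among the 14 gene lists, synaptic adhesion and regional transcription factors had the largest shares of differences, as a description. The transcription factor list shares *Nr4a2* and *Nr4a3* with the activity-induced list. Of 25 adhesion genes tested, 10 were higher and 2 lower (48.0%, beside 9.33% of all genes, median log2 fold change 0.40). Against granule nuclei *Cntnap2* (2.21), *Cntnap5a* (-0.64) and *Lrrtm4* (-0.91) changed direction and *Cntnap5c* was no longer called. *Lrrtm3*, a postsynaptic partner of neurexins, had 503 ± 158 against 108 ± 24.9 CPM (2.17 ± 0.15) and the contactin *Cntn5* 1350 ± 447 against 322 ± 114 (2.04 ± 0.14), while *Cntnap5c* had 117 ± 90.2 against 817 ± 79.8 (-3.02 ± 0.30). Of 25 transcription factor genes tested, 9 were higher and 3 lower (48.0%). Beside *Cux2*, *Tshz2*, *Tshz3* and *Zbtb20*, *Satb1* was higher (1.94 ± 0.19) and *Neurod6*, a factor of forebrain pyramidal neurons, lower (-1.27 ± 0.29). Of 9 activity-induced genes tested, *Nr4a1*, *Nr4a2* and *Fosl2* were higher and *Nr4a3* lower, by 1.71 on the log2 scale.

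The lists tied to the disease model showed no call. Of 16 tested genes of App processing, 7 of complement, 14 of the unfolded protein response and 2 of plaque-responding glia, 0 differed between the populations, with median log2 fold changes of 0.01, 0.03, 0.14 and -0.40. Over all genes 9.33% were called, and each list is too short to tell 0 calls from that share. *Csmd1*, the complement inhibitor that is abundant in neurons, had 7311 ± 645 CPM in the members and 6734 ± 261 in Slc17a7 nuclei (0.08 ± 0.10). *C5ar1*, the receptor that PMX205 blocks, had 0 counts in both, which allows up to 1.54 CPM in the members and 0.135 CPM in the Slc17a7 nuclei. Of 16 neuropeptide genes 3 could be tested, and *Vgf* was higher (1.06 ± 0.33), a call that DESeq2 did not make.

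**Figure D4:**
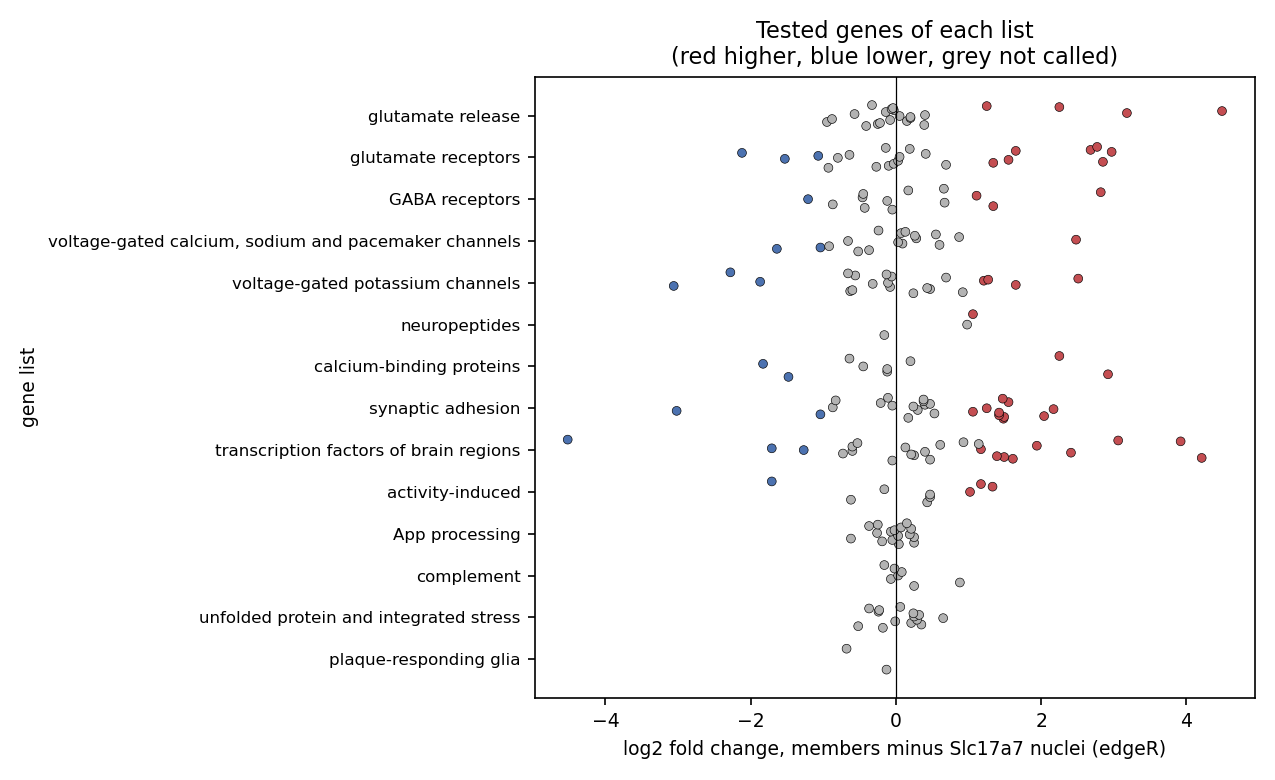
Log2 fold change (edgeR, members minus Slc17a7 nuclei) of each tested gene of the 14 gene lists; red points are higher and blue points lower at an adjusted p under 0.05 and a fold of at least 2, and grey points did not pass. Adhesion and transcription factor genes hold the most colored points, and the App, complement, unfolded protein and glial lists hold none.

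Genotype and treatment were compared in the members of the 19 wells with at least 3 of them (145 nuclei; 4 WT-veh wells and 5 wells of each other group, with 30838 to 534166 member transcripts a well), with sex as a covariate. Of 1529 genes tested, edgeR called 0 (0%) in Arc-veh against WT-veh, 0 in Arc-PMX against Arc-veh, 0 in WT-PMX against WT-veh and 0 in the difference between the PMX205 effects of the genotypes. Without adjustment, 61, 46, 55 and 64 genes had a p under 0.05. DESeq2 called 1 gene in the first contrast, *Etv5*, 1 in the third, *Cobl*, and 0 in the others. In a test of whether the Arc effect differed between members and Slc17a7 nuclei, 0 of 5092 genes were called (0%) and 226 had an unadjusted p under 0.05. The median standard error of a log2 fold change was 0.34 to 0.36 in the 3 contrasts between groups, 0.49 in the difference between PMX205 effects and 0.51 in the comparison of Arc effects. In simulated counts of this depth for Arc-veh against WT-veh, 29% of the genes changed 2-fold and 83.9% of those changed 4-fold were recovered, with 9 false calls. The simulation gave all genes the same dispersion between wells. It does not hold for genes that vary more, such as those whose levels differ between the clusters, so the 0 calls do not exclude 4-fold changes.

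By list, the group contrasts could test 19 of 24 glutamate receptor genes, 20 of 25 adhesion genes, 13 of 25 release genes and 15 of 36 transcription factors, with 0 called in each. The median log2 fold change of these lists from WT-veh to Arc-veh was -0.12, -0.06, -0.13 and 0.12. Of the complement list 3 genes could be tested, with medians of -0.12 from WT-veh to Arc-veh and 0.02 from Arc-veh to Arc-PMX. *Csmd1* had 7199 ± 798 CPM in WT-veh (SD, n = 4), 6307 ± 1054 in WT-PMX, 6557 ± 533 in Arc-veh and 6806 ± 1140 in Arc-PMX (n = 5 each). *Tshz2* had 1554 ± 1014, 2216 ± 461, 2055 ± 210 and 2154 ± 381 CPM in the same order, and the widest range was that of WT-veh, from 390 to 2856 CPM.

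*App* is the mouse gene of the protein that the transgene encodes, and reads of the human transgene that align to it cannot be told apart from mouse reads in these counts. In the members it had 544 CPM in WT-veh F2, 532 in F3, 355 in M1 and 405 in M2, compared with 559, 963, 699, 630 and 876 CPM in Arc-veh F1, F2, M1, M2 and M3. Each Arc-veh well lay above each WT-veh well. How many of the 1529 tested genes separate wells of 2 groups in this way was not counted. Arc-PMX wells had 712 to 861 CPM and WT-PMX wells 401 to 687, again without overlap. The log2 fold change of Arc-veh against WT-veh was 0.71 ± 0.22 (adjusted p = 0.862 over all genes, edgeR), and 0.56 to 0.77 with 1 WT-veh well left out. The mean was 286 CPM higher in Arc-veh than in WT-veh and 231 CPM higher in Arc-PMX than in WT-PMX. It differed by 31.8 CPM between Arc-PMX and Arc-veh and by 86.8 CPM between WT-PMX and WT-veh. These differences were singled out after the values were seen and carry no test of their own. In Slc17a7 nuclei *App* was 513 ± 53.8 CPM in WT-veh, 566 ± 43.5 in WT-PMX, 670 ± 65.6 in Arc-veh and 683 ± 54.4 in Arc-PMX (n = 6 each). *App* also varied between clusters of members, from 463 CPM in the Gm6260/Fras1 cluster to 918 CPM in the Ebf2/Ebf3 cluster.

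The genes with the smallest p were named after their values were seen. They were *Etv5* in Arc-veh against WT-veh, *Cobl* in WT-PMX against WT-veh and *Slc4a4* in the difference between PMX205 effects. Levels of these 3 differed between the clusters of members. In Arc-PMX against Arc-veh the gene was *Gpm6b* (log2 fold change -1.24 ± 0.34, adjusted p = 0.962, edgeR). *Slc4a4* had 13.9, 0, 27.3 and 0 CPM in the 4 WT-veh wells and 0, 279, 200, 321 and 551 CPM in the 5 Arc-veh wells (log2 fold change 4.44 ± 1.10, adjusted p = 0.50, edgeR). It ranged from 24.0 to 453 CPM in WT-PMX (3.91 ± 1.09 against WT-veh, adjusted p = 0.992, edgeR) and from 0 to 214 CPM in Arc-PMX (-1.64 ± 0.77 against Arc-veh, adjusted p = 0.998, edgeR). Wells as low as those of WT-veh occurred in each group. *Etv5*, an ETS factor gene, had 258 to 560 CPM in WT-veh and 0 to 177 CPM in Arc-veh, with no overlap (-2.02 ± 0.50, adjusted p = 0.50, edgeR). As for *App*, the share of all genes without overlap was not counted. *Cobl*, an actin nucleator gene, had 46.8 to 170 CPM in WT-veh and 168 to 610 CPM in WT-PMX, overlapping at their ends (1.82 ± 0.40, adjusted p = 0.332, edgeR). Without the well Arc-veh F1, edgeR called *Slc4a4* (5.00) and *Etv5* (-2.57) in Arc-veh against WT-veh, each at an adjusted p of 0.0481. The clusters that the members came from are given beside *Slc4a4*, *Etv5* and *Cobl*, without a test over wells. The Npsr1/Pdzrn3 cluster, at 763 CPM of *Slc4a4* against 1.96 to 55.2 CPM in the other 4 clusters, gave 2 of 32 members in WT-veh, 15 of 50 in WT-PMX, 11 of 31 in Arc-veh and 5 of 34 in Arc-PMX. Of these, 7 of the 11 came from Arc-veh M2, 4 of the 5 from Arc-PMX F1 and 11 of the 15 from WT-PMX M1 and M2. *Etv5* was at 384 CPM in the Fn1/Rxfp1 cluster, 292 in the Gm6260/Fras1 cluster, 92.1 in the Tshz2/Unc13c cluster, 32.0 in the Ebf2/Ebf3 cluster and 19 in the Npsr1/Pdzrn3 cluster. The Fn1/Rxfp1 cluster gave 13, 11, 8 and 5 members and the Gm6260/Fras1 cluster 4, 5, 3 and 3 in the same order. *Cobl*, found in 114 of 147 members, was at 525 CPM in the Npsr1/Pdzrn3 cluster, 509 in the Tshz2/Unc13c cluster and 82.2 to 131 in the other 3. The part of this makeup in the differences was not tested.

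**Figure D5:**
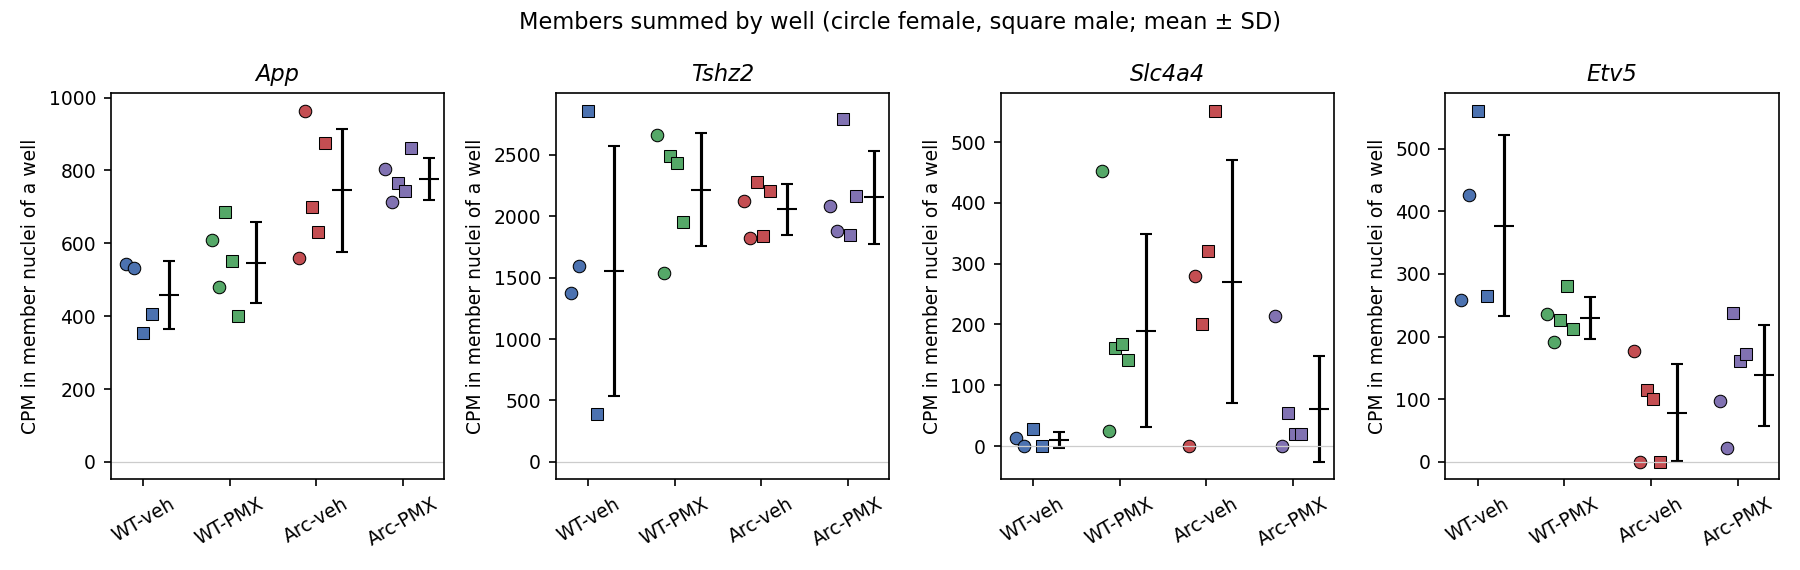
CPM of *App*, *Tshz2*, *Slc4a4* and *Etv5* in the summed members of each of the 19 wells with at least 3 members (circles female, squares male), with the mean and SD of each group beside them. *App* is higher in each Arc well than in the WT wells of the same treatment, *Tshz2* overlaps in all groups, and *Slc4a4* is at 0 to 27.3 CPM in the 4 WT-veh wells and as low in 5 wells of the other groups.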

How the data were processed

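Nuclei were processed by the study with Parse Evercode split-pool barcoding, and the authors demultiplexed with bcl2fastq and aligned to mm10 with split-pipe. The deposited values are raw counts of transcripts (unique molecular identifiers) per gene and barcode in 7 sublibraries, each mixing all wells, and every count used here starts from them. Wells were mapped to mice by the labels, microglial wells were left out, and 0 columns of other series were found. Gene IDs matched GENCODE vM21 for 55450 of 55536.

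The members, gene lists and tests were chosen with earlier results of these data known. Barcodes with more than 300 transcripts and 400 genes (47621) were kept, then those with at least 2000 and fewer than 50000 transcripts. Depth per well was 883 to 2144 nuclei at a median of 4011 to 14109 transcripts. Clustering (scanpy 1.11.5, leidenalg 0.10.2, Python 3.11.15) used 2000 variable genes, 30 components, 15 neighbours and resolution 1.5. Doublets were not removed in the rule, and leaving out nuclei with a Scrublet score over 0.25 (2 members) was an alternative.

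Counts were summed per well and tested with edgeR 4.0.16 (limma 3.58.1, R 4.3.3): filterByExpr, TMM, glmQLFit, glmQLFTest and Benjamini-Hochberg adjustment at 0.05, with a fold of at least 2 between populations. DESeq2 1.42.0 was an alternative. Group contrasts were planned on wells with at least 10 members and sex as a term, but in those 5 wells sex is fixed by the group, so the sex term cannot be estimated and 1 residual degree of freedom remains without it. Wells with at least 3 were therefore used, chosen after seeing the data. Named genes were the 15 called in each direction with the largest change among those with at least 100 CPM and one sign in every well, plus examples with large changes from each list; those of the group contrasts were named after their values were seen. Shares were compared by exact permutation, with 95% Clopper-Pearson intervals and a limit of 3 counts for a share of 0. On simulated counts with the same dispersion for all genes, members against Slc17a7 nuclei recovered 63% of 2-fold and 90.7% of 4-fold changes (9644 genes, 3 false calls). Some genes of the lists are not reported here by name.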

Additional observations from a re-analysis of the deposited data

Results flagged for a closer look

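A total of 20 groups of 4 to 6 wells were examined for a single distant value, and chance marks about 1 in 20 such groups. *Fn1* in the members of Arc-veh F1 was at 545 CPM, while the other 4 Arc-veh wells lay between 0 and 85.6 CPM. The gap made up 0.843 of the whole range (n = 5). That well had 4 members, 3 of them in the Fn1/Rxfp1 cluster, whose 37 members all carried *Fn1*. The cluster held 2 of 7 members of Arc-veh M1, 3 of 13 of M2, 0 of 3 of F2 and 0 of 3 of M3. The part of this makeup in the distant value was not tested.

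Nuclei too shallow for the rule, with 300 or more but fewer than 2000 transcripts, also held the gene. Of 15309 such nuclei, 52 (0.340%, 95% exact binomial interval 0.254 to 0.445) had at least 1 transcript of *Slc17a6* at a median of 993 transcripts, and 0 had 3 or more. Nuclei chosen by markers of other cell types held at least 1 transcript in 2.02% (oligodendrocyte nuclei, median 3532 transcripts) and 0.740% (nuclei with *Gad1* or *Gad2*, median 10568). The depths differ, so these shares are not compared.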

How the results depend on the processing

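Members against Slc17a7 nuclei gave 844 to 1226 calls under the other settings, 801 to 922 with 1 well left out, and 497 in wells with at least 3 of both. Of 1376 values of 102 called genes, 1283 kept direction and call, 81 lost the call and 12 changed direction. Against granule nuclei the log2 fold change was 2.21 for *Cntnap2*, -0.64 for *Cntnap5a*, 0.16 for *Gm49678*, -0.27 for *Grm2*, 0.57 for *Kcnc2*, -0.67 for *Kcnc4*, -0.91 for *Lrrtm4*, -0.38 for *Mef2c*, -0.61 for *Pcp4*, -2.53 for *Slc4a4* and -1.20 for *Sv2c*. *Pcp4* was at -1.71 without the Ebf2/Ebf3 cluster.

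Group contrasts with 0 calls gained some. In wells with at least 10 members and no sex term, with 1 residual degree of freedom, calls were 123 for Arc-veh against WT-veh, 94 for Arc-PMX against Arc-veh, 137 for WT-PMX against WT-veh and 93 for the difference between PMX205 effects. With at least 5 members, calls were 2 for Arc-veh against WT-veh and 0 for Arc-PMX against Arc-veh. They were 16 for WT-PMX against WT-veh and 1 for the difference between PMX205 effects. In the same order, calls were 1, 0, 1 and 0 by DESeq2, and 18, 27, 23 and 15 with no filter on low counts. With 1 well left out they were 0 to 2, 0 to 0, 0 to 0 and 0 to 1, with the calls appearing without Arc-veh F1. The Arc effect in members minus that in Slc17a7 nuclei gave 112 calls in wells with at least 10 of both and 0 to 1 with 1 well left out (1 without Arc-veh F1). The cause of these changes was not tested.

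The share of members changed direction. Arc-veh minus WT-veh was -0.174 percentage points in females, 0.356 in males and -0.0103 to 0.200 with 1 well left out (-0.0103 without Arc-veh M2). Arc-PMX minus Arc-veh was -0.0247 at 5 or more transcripts, -0.278 after thinning, -0.906 among nuclei with *Slc17a7* or *Slc17a6*, -0.210 in males (0.255 in females), -0.0248 without the Ebf2/Ebf3 cluster and -0.141 to 0.124 with 1 well left out (-0.0110 without Arc-veh F2, -0.0434 without Arc-veh F3, -0.141 without Arc-PMX F1, -0.00143 without Arc-PMX M1). WT-PMX minus WT-veh was -0.0156 after thinning, -0.192 in females, 0.622 in males and 0.0861 to 0.324 with 1 well left out. Settings on wells of 3 or 5 members, on the looser Slc17a7 nuclei and on the Ebf2/Ebf3 cluster were chosen after seeing the data.

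Replicate numbers are shared between groups. Of same-numbered pairs of wells 6 of 24 correlated over 0.1 (-0.505 to 0.21), and of differently numbered pairs 27 of 111 (-0.4 to 0.369). The wells were therefore not treated as paired, though sums of so few nuclei cannot exclude a pairing. With the replicate block edgeR called 0 genes in each of the 4 group contrasts, and *App* was at 0.79. Fits at 5 or more transcripts of *Slc17a6*, on members with 3 or more *Slc17a7* and on WT-veh wells alone were not run, as too few wells remained, nor was the planned fit of 10-member wells with sex, which the group fixes there.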
